A study of Mus musculus with 4 samples.

Results

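Cell division in whole lung tissue was followed through 40 genes of the cell cycle, 15 that act in S phase and 25 that act mainly in mitosis. The genes were chosen by symbol from a list of S phase and mitosis genes, and all 40 were found among the 41079 genes of the deposited table. Lung RNA was sequenced as 4 libraries, 1 per condition, and their values are always given in this order: normal wild type (WT), normal Rab44-knockout (Rab44-KO), then WT with OVA induction (OVA-induced WT) and Rab44-KO with OVA induction (OVA-induced Rab44-KO). Rab44 encodes a large Rab GTPase, and the Rab44-KO mice were made by CRISPR/Cas9 editing in the C57BL/6 strain and compared with WT littermates, all of them females of 8 to 14 weeks. OVA-induced mice were sensitized with ovalbumin (OVA) in alum by intraperitoneal injection on days 0, 7 and 14, were given 100 μg OVA by the nose, in a volume of 50 μL, on days 17 to 20, and were sampled on day 21. Normal mice are labelled as untreated, although their protocol text also names a challenge with PBS. The number of mice behind a library is not given in the sources used here. OVA with alum and repeated airway challenge is a model of allergic inflammation of the airways.

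A dividing cell first loads the replicative helicase onto its origins of replication, then copies its DNA in S phase while it makes deoxynucleotides, and finally separates the copies on the mitotic spindle under the control of cyclin-dependent kinase 1. Transcripts of the first set are switched on by E2F factors around the start of S phase, and those of the second set later, in G2 and mitosis, by the MuvB complex with B-Myb and FoxM1. In the resting lung most cells do not divide, and in allergic inflammation lymphocytes, macrophages and epithelial cells can all re-enter the cycle. These transcripts are therefore used as a measure of how much division a tissue holds.

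Counts summed to between 18112901 and 19910236 per library. Levels are given as counts in a library of 1000000 (CPM) after scaling by the TMM method, and the log2 fold change (log2FC) is the log2 ratio of CPM between 2 libraries, given where the higher of them reached 10 counts. All 40 genes passed that minimum in every comparison, the lowest being Ttk with 10 to 25 counts. A range after a log2FC is a 95% interval of the count ratio and covers counting error only. Each condition being a single library, differences lack a check by replicates, no p-value was computed, and every comparison is between libraries. The tissue label held, since the surfactant gene Sftpc had 181126 to 361981 counts, the club cell gene Scgb1a1 320451 to 440878, and the endothelial gene Pecam1 13741 to 17209. Rab44 itself had 251 (normal) and 810 (OVA-induced) counts in the WT libraries, against 1 and 0 in those of Rab44-KO mice.

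The OVA-induced WT library held more and the OVA-induced Rab44-KO library less of nearly every cell cycle transcript than the normal library of the same genotype. Summed over the 40 genes, the levels of the 4 libraries were 449, 485, 699 and 361 CPM. The OVA-induced WT library had the highest level of 36 of the 40 genes, against 34.1% of all 19744 genes with enough counts in any library. The OVA-induced Rab44-KO library had the lowest level of 36, against 31.2% of all genes. The exceptions at the top were Mcm4, Ttk and Cenpf, highest in normal Rab44-KO lungs, and Kif23, highest in those of OVA-induced Rab44-KO mice. The exceptions at the bottom were Tk1, Bub1 and Kif23, lowest in normal WT, and Rrm1, lowest in normal Rab44-KO lungs. With the deposited length-scaled values (TPM) there were more exceptions. Mcm2, Prc1 and Kif20a were then also highest in normal Rab44-KO lungs. Mcm4, Mcm7, Cdt1, Tyms and Kif20a were then no longer lowest in OVA-induced Rab44-KO lungs. In RNA from whole tissue, fewer dividing cells and less RNA per dividing cell cannot be told apart.

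In WT lungs, OVA-induced over normal, the median log2FC of the 40 genes was 0.76, beside 0.00 for all 19023 genes with enough counts. All 40 were positive, though Mcm4 and Ttk were negative with the deposited length-scaled values (TPM), 13 were over 2-fold higher against 8.99% of all genes, and none was over 2-fold lower against 5.20%. The counting interval lay above 0 for 36 of them, against 29.2% of all genes, and the others were Mcm4, Aurka, Ttk and Cenpf. In Rab44-KO lungs the same comparison gave a median of -0.70, beside -0.01 for all 19073 genes. Here 36 were negative, of which Mcm7 and Cdt1 turned positive with TPM, 12 were over 2-fold lower against 3.85% of all genes, and none was over 2-fold higher against 6.44%. The interval lay below 0 for 29 genes, against 26.6% of all genes, and above 0 for Kif23 alone, against 4843 of the 19073. With TPM the 12 became 7, against 2.52% of all genes. Over 1.5-fold, 28 genes were higher for OVA in WT against 15.4% of all genes, and 23 were lower for OVA in Rab44-KO lungs against 10.1%.

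Between the normal libraries the genes differed least and were mostly higher in Rab44-KO, whereas between the OVA-induced libraries they differed most. Normal Rab44-KO over normal WT gave a median of 0.16, beside 0.00 for all 18718 genes, and no gene of the 40 was over 2-fold higher or lower, against 2.77% and 2.0% of all genes. By sign 32 of the 40 were positive, against 9514 of the 18718 genes, and 8 were negative. Of the negative ones Mcm7, Pcna and Ccnb1 turned positive with TPM. The interval lay above 0 for Cdc6, Ccnb2, Kif11, Tpx2, Prc1, Mki67, Top2a and Cenpf, or 8 of 40 against 14.6% of all genes. It lay below 0 for none of the 40, against 2767 of the 18718. Over 1.5-fold higher were 3 of the 40, Cdc6, Tpx2 and Cenpf, against 6.83% of all genes. OVA-induced Rab44-KO over OVA-induced WT gave a median of -1.20, beside -0.02 for all 19259 genes. Of the 40 genes 39 were negative, of which Mcm4 turned positive with TPM, 25 were over 2-fold lower against 7.34% of all genes, and none was over 2-fold higher against 8.40%. The interval lay below 0 for 37, against 33.8% of all genes, and held 0 for Mcm4, Ttk and Kif23. With TPM the 25 became 15, against 4.03% of all genes. In a ratio the gene length cancels, so that apart from the pseudocount TPM shifts all genes of a comparison alike, and the median of all genes was then 0.29 in this comparison, -0.16 for OVA in WT and 0.11 for OVA in Rab44-KO lungs. The 4 comparisons share libraries, so their values are set side by side and are not independent.

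The difference between the OVA responses of the genotypes was negative for all 40 genes, of which Mcm4 and Kif23 changed sign with TPM, with a median of -1.47 beside -0.03 for all genes. It was below -1 for 28 of the 40 against 9.14% of all genes, and above 1 for none against 8.98%. Its counting interval lay below 0 for 38 genes, against 26.9% of all genes, and held 0 for Mcm4 and Kif23. For 26 genes the interval was above 0 in WT and below 0 in Rab44-KO lungs, against 6.72% of all genes.

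**Figure D1:**
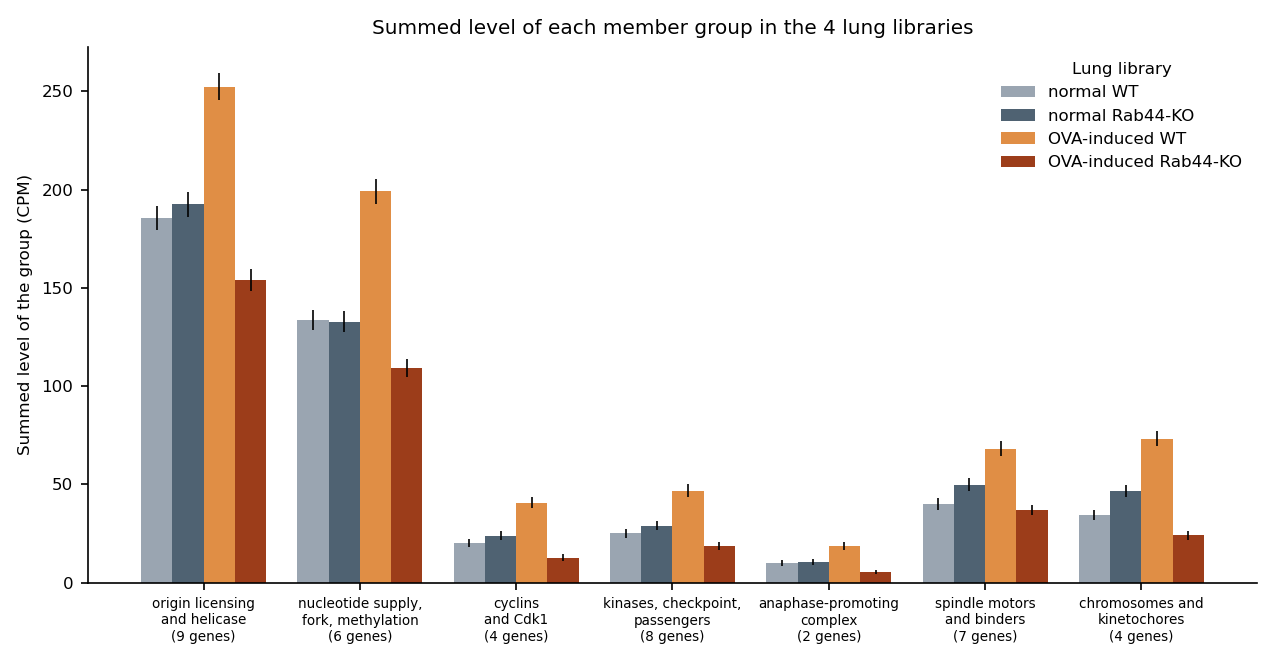
Summed level in CPM of 7 groups of members, by role, in each of the 4 lung libraries, with 95% Poisson intervals that cover counting error only. The OVA-induced WT bar is the highest and the OVA-induced Rab44-KO bar the lowest in every group, for example 40.6 and 12.8 CPM for the cyclins and Cdk1.

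The classes differed in promoter sequence, which the choice of genes did not use. RefSeq windows on GRCm38.p6, from 250 bases before to 50 after the start of transcription, were found for 34 of the 40 genes and for 27025 genes in all. They were searched on both strands for the cell cycle homology region (CHR), TTTGAA, to which MuvB binds, for the CCAAT box, CCAAT, to which NF-Y binds, and for 4 forms of the E2F site, TTTCCCGC, TTTGGCGC, TTTCGCGC and TTTGCCGC. A CHR was in the window of 15 of 21 mitosis genes (71.4%) and of 1 of 13 S phase genes, Mcm2, against 20.2% of all promoters. An E2F form was in 7 of 13 S phase genes (53.8%), namely Cdc6, Cdt1, Mcm3, Mcm5, Mcm6, Mcm7 and Uhrf1, and in 1 of 21 mitosis genes, Cdk1, against 2.60% of all promoters. A CCAAT box was in 18 of 21 mitosis genes (85.7%) and 9 of 13 S phase genes (69.2%), against 41.1% of all promoters. From 100 bases before to 50 after the start, the same 15 mitosis genes and Mcm2 held a CHR, against 9.23% of all promoters. An E2F form was there in 4 of 13 S phase and 0 of 21 mitosis genes, against 1.45% of all promoters. A match of letters is a description and not a binding site.

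The stretches below hold the E2F forms of the 3 S phase genes with the most counts among those with a match, in capitals, on GRCm38.p6 and written 5′ to 3′ along the gene. They show the E2F form near the start in 3 subunits of the same helicase. In Mcm6 a pair of overlapping matches forms 1 longer run.
Mcm6, chr1:128359705-128359835, minus strand: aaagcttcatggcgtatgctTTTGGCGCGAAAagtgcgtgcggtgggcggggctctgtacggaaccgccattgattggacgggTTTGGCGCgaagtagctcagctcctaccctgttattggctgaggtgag
Mcm7, chr5:138171854-138172068, minus strand: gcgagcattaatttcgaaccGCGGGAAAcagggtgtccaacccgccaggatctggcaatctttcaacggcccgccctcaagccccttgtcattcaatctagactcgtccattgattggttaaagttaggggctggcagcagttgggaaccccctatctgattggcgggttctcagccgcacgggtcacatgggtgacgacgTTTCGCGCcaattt
Mcm3, chr1:20820267-20820296, minus strand: gtgGCGGGAAAacttgggaagtTTTGGCGC

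The stretches of the 3 mitosis genes with the most counts and a CHR follow, with the CHR in capitals. Kif23 stands beside them because it was the 1 gene that was not lower in the Rab44-KO library than in the WT one under OVA, a choice made after its values were seen.
Mki67, chr7:135716379-135716515, minus strand: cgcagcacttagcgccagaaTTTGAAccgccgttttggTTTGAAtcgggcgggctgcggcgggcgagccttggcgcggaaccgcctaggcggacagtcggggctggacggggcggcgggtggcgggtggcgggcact
Top2a, chr11:99024187-99024388, minus strand: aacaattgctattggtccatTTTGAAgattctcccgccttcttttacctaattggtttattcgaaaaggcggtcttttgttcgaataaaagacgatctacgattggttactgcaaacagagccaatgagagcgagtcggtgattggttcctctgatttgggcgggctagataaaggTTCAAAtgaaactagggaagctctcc
Bub1b, chr2:118598227-118598256, plus strand: acgtctgcgtcaagagacgttaaaTTTGAA
Kif23, chr9:61946772-61946817, minus strand: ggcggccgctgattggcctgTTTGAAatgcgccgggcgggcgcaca

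Kif23 held a CHR and was not lower, whereas Ccnb1 and Birc5, the genes with the most negative log2FC, held none in their windows. Within the mitosis class, the 15 genes with a CHR had a median log2FC of -1.42 in OVA-induced Rab44-KO over OVA-induced WT lungs and the 6 without one -1.32, and the ranges overlapped. Within the S phase class, the 7 genes with an E2F form had a median of -1.06 and the 6 without one -0.83, again with overlapping ranges.

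Origin licensing genes were moderately higher in OVA-induced WT and moderately lower in OVA-induced Rab44-KO lungs. The 6 subunits of the Mcm2 to Mcm7 helicase summed to 172, 178, 231 and 144 CPM in the 4 libraries. Mcm5 had 330, 326, 597 and 262 counts. Its log2FC was 0.84 (0.65 to 1.04) for OVA in WT and -0.41 (-0.65 to -0.17) for OVA in Rab44-KO lungs. The normal counts of Mcm5 nearly coincided and the OVA-induced ones lay on either side of them. Mcm3 had 551, 509, 835 and 404 counts, with log2FC of 0.59 and -0.43. Mcm6 had 695, 705, 981 and 573 counts, with log2FC of 0.48 and -0.39. Mcm2 and Mcm7 were the smaller movers among those whose interval excluded 0 in WT, at 0.20 and 0.43, and the interval of Mcm7 held 0 in Rab44-KO lungs (-0.11). Of the exon bases of Mcm7, 12.6% lie under exons of other genes, among them Ap4m1 and Cops6. Mcm4 was flat, with 683, 681, 716 and 663 counts, and all of its intervals held 0, so the subunits of 1 complex did not move by the same ratio.

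Of the loaders of that helicase, Cdc6 differed by more than any of its subunits. Cdc6, an ATPase that recruits it to origins, had 65, 102, 126 and 51 counts, and log2FC of 0.94 (0.50 to 1.40) in WT and -1.09 (-1.61 to -0.60) in Rab44-KO lungs. It was also the 1 S phase gene whose interval lay above 0 between the normal libraries, at 0.72 (0.26 to 1.20). Cdt1, its partner in loading, had 133, 112, 205 and 110 counts, with 0.61 in WT and -0.12 in Rab44-KO lungs, where the interval held 0. Gins2, a subunit of the GINS complex that activates the helicase, had 54, 54, 82 and 36 counts, with log2FC of 0.59 and -0.68. These are uncertain, since 67.3% of its exon bases lie under exons of Gse1 on the opposite strand. The strand setting of the counting is not given.

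The subunits of ribonucleotide reductase, which makes deoxynucleotides, differed in the size of their log2FC. Rrm2, the small subunit, which is made in S phase, had 112, 125, 288 and 63 counts. Its log2FC was 1.35 (1.03 to 1.68) in WT, -1.08 (-1.54 to -0.64) in Rab44-KO and -2.20 (-2.62 to -1.80) between the OVA-induced libraries, the largest difference among the S phase genes. Rrm1, the large subunit, had 704, 645, 971 and 698 counts, with 0.45 (0.31 to 0.59) in WT, 0.02 (-0.14 to 0.18) in Rab44-KO and -0.49 (-0.63 to -0.34) between the OVA-induced libraries. In Rab44-KO lungs the intervals of the pair did not overlap. Tyms, which makes thymidylate, had 113, 111, 181 and 104 counts, and Tk1, which salvages thymidine, had 113, 114, 231 and 128. Both were higher in OVA-induced WT lungs, at 0.67 and 1.02, while their intervals held 0 for OVA in Rab44-KO lungs. Pcna, the sliding clamp of the replication fork, had by far the most counts of the 40 genes, 1391, 1298, 1925 and 1070, and log2FC of 0.46 and -0.37. Uhrf1, which keeps DNA methylation in place behind the fork, had 133, 131, 260 and 66 counts with differences among the larger ones of the class, 0.95 in WT, -1.08 in Rab44-KO and -1.99 (-2.40 to -1.59) between the OVA-induced libraries.

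Mitotic cyclins and their kinase included the gene with the widest gap, Ccnb1. Ccnb1, which encodes cyclin B1 and drives entry into mitosis, had 54, 51, 141 and 13 counts, so that the OVA-induced libraries lay far to either side of the normal ones. Its log2FC was 1.37 (0.91 to 1.85) in WT, -2.06 (-3.07 to -1.17) in Rab44-KO, and -3.44 (-4.39 to -2.63) between the OVA-induced libraries, the most negative of the 40 genes. Of its 150-base windows 8.20% occur in other genes, among them its pseudogene Ccnb1-ps. Ccnb2, cyclin B2, had 71, 94, 128 and 48 counts, with 0.84 and -1.06. Cdk1, the kinase that both activate, had 64, 74, 139 and 36 counts, with 1.10 and -1.13, and the lowest of the 4 was again OVA-induced Rab44-KO. Ccna2, cyclin A2, which acts from S phase to early mitosis, had 202, 215, 379 and 153 counts and smaller log2FC of 0.89 and -0.59, and 12.5% of its exon bases lie under exons of Exosc9.

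Among mitotic kinases and checkpoint proteins, the chromosomal passengers had the most negative log2FC between the OVA-induced libraries. Birc5, survivin, had 63, 64, 155 and 26 counts, and log2FC of 1.28 (0.85 to 1.73) in WT, -1.39 (-2.11 to -0.72) in Rab44-KO and -2.58 (-3.24 to -1.98) between the OVA-induced libraries. Aurkb, the kinase of that complex, had 43, 54, 103 and 24 counts and -2.11 (-2.82 to -1.46) in the last comparison. Aurka, its relative at the spindle poles, had 59, 62, 82 and 44 counts and -0.91 (-1.47 to -0.36). The intervals of the pair of Aurora kinases overlapped there, though only at their ends. Plk1, a kinase of mitotic entry and exit, had 67, 71, 130 and 45 counts, with 0.94 and -0.75. Melk, a kinase of proliferating cells, had 41, 36, 70 and 27 counts, with 0.76 in WT and -0.51 in Rab44-KO lungs, where the interval held 0. Bub1, a checkpoint kinase, had 38, 44, 98 and 50 counts, so it was higher in OVA-induced WT (1.35, 0.80 to 1.93) but near its normal level after OVA in Rab44-KO mice (0.09, -0.52 to 0.71). Bub1b, which holds back anaphase, had 153, 174, 249 and 137 counts, with 0.69 and -0.44. Ttk, the kinase at the head of that checkpoint, had 18, 25, 20 and 10 counts, which are too few to tell OVA-induced from normal WT lungs (0.14, -0.85 to 1.14).

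Both partners of the anaphase-promoting complex among the 40 genes were lower in OVA-induced Rab44-KO lungs. Ube2c, the E2 enzyme that starts its ubiquitin chains, had 57, 72, 130 and 27 counts, with 1.18 in WT, -1.51 in Rab44-KO and -2.27 (-2.93 to -1.67) between the OVA-induced libraries, and 22.8% of its exon bases lie under exons of Tnnc2. Cdc20, its activator, had 136, 123, 232 and 75 counts, with 0.76, -0.81 and -1.64 (-2.03 to -1.26). The 13 listed core subunits, inhibitors and other partners of the complex had medians of 0.03, -0.08 and -0.22 in these 3 comparisons, and none was over 2-fold higher or lower, where the shares of all genes were 8.99% and 5.20%, 6.44% and 3.85%, and 8.40% and 7.34%.

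The spindle group held both the largest log2FC in WT lungs and the 1 gene that was not lower in the last comparison. Tpx2, which targets Aurora A to the spindle, had 74, 119, 242 and 72 counts, with 1.70 (1.32 to 2.09) in WT and -0.82 (-1.26 to -0.39) in Rab44-KO lungs. It was also higher in the Rab44-KO than in the WT library without OVA, at 0.76 (0.33 to 1.20). Kif11, the motor that keeps the poles apart, had 75, 103, 187 and 60 counts, with 1.30 and -0.87, and Hmmr, a spindle-binding protein, had 29, 40, 77 and 22, with 1.39 and -0.95. Both followed the common order of the libraries. Nusap1, which bundles spindle microtubules, had 88, 100, 142 and 60 counts, with 0.68 and -0.83. Prc1, which bundles them at the midzone, had 121, 149, 172 and 81 counts, with 0.49 and -0.97, and 11.1% of its exon bases lie under exons of other genes, among them Rccd1. Kif20a, a motor of cytokinesis, had 260, 271, 330 and 250 counts, with 0.33 and -0.21, and 29.3% of its exon bases lie under exons of Cdc23. Kif23, the motor of the centralspindlin complex, had 120, 128, 172 and 176 counts, so that both OVA-induced libraries were above both normal ones. Its log2FC was 0.51 (0.16 to 0.86) in WT, 0.36 (0.03 to 0.70) in Rab44-KO and 0.02 (-0.29 to 0.34) between the OVA-induced libraries.

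Genes of chromosome structure and kinetochores completed the pattern. Top2a, the topoisomerase that untangles sister chromosomes, had 276, 318, 667 and 141 counts, with 1.26 (1.06 to 1.47) in WT, -1.27 (-1.57 to -0.98) in Rab44-KO and -2.25 (-2.52 to -1.99) between the OVA-induced libraries. Mki67, which encodes Ki-67, the usual stain for dividing cells, had 280, 384, 604 and 250 counts, with 1.10 (0.89 to 1.31), -0.71 (-0.95 to -0.48) and -1.28 (-1.50 to -1.07). It differed between the normal libraries too, by 0.53 (0.30 to 0.76). Cenpe, a kinetochore motor, had 56, 60, 85 and 51 counts, with 0.59 and -0.33, and the interval of the second held 0. Cenpf, a large kinetochore protein, had 49, 87, 64 and 28 counts, the only gene of the 4 whose normal Rab44-KO level was the highest, with 0.37 (-0.19 to 0.94) in WT and -1.73 (-2.40 to -1.10) in Rab44-KO lungs.

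**Figure D2:**
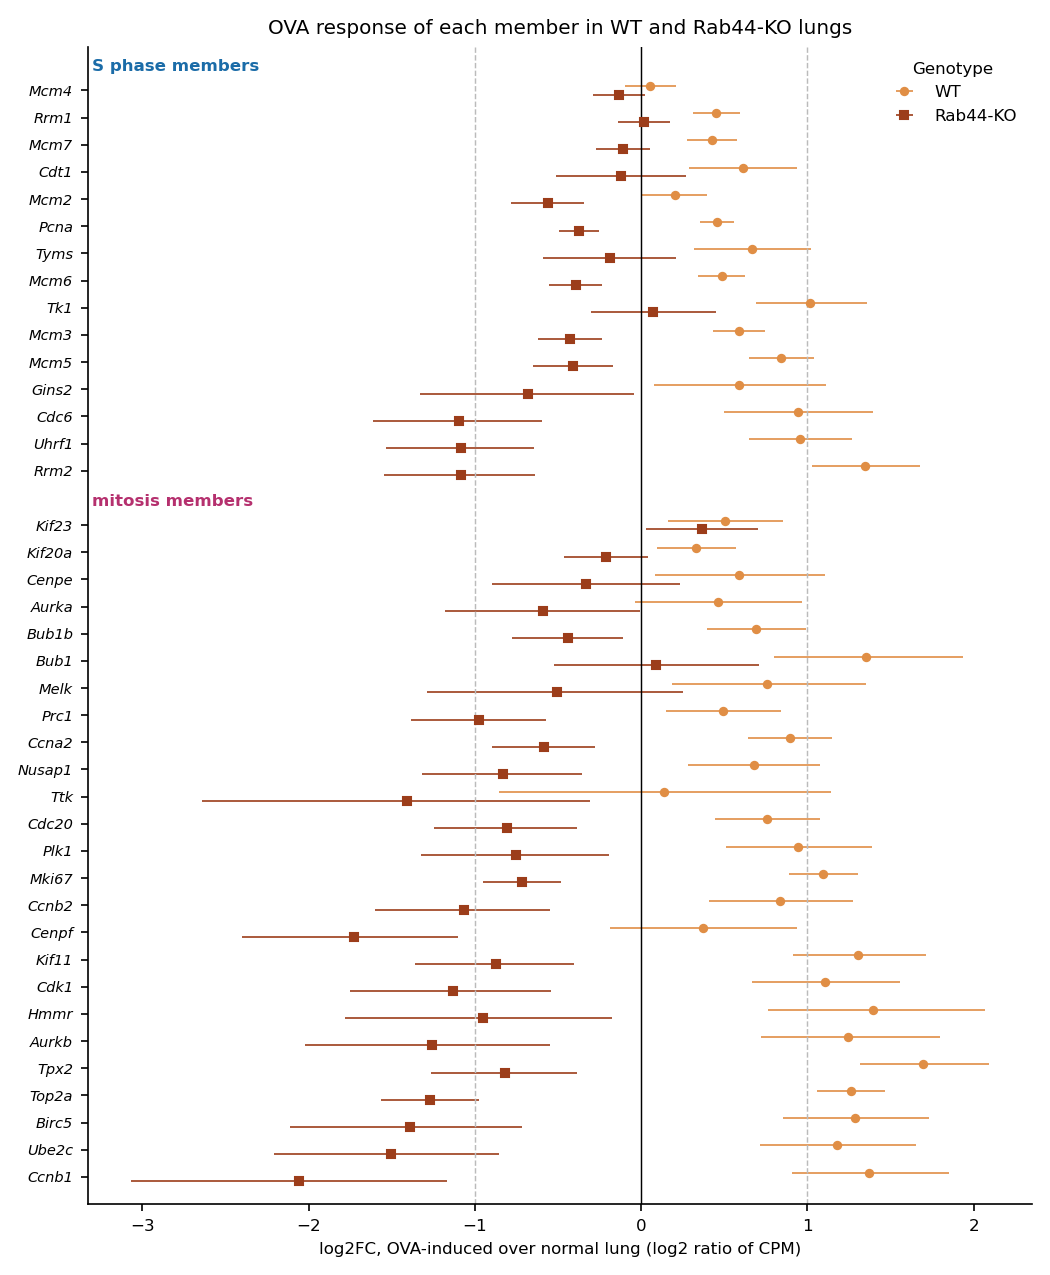
log2FC of OVA-induced over normal lung for each of the 40 genes in WT (circles) and Rab44-KO (squares) mice, with 95% counting intervals, sorted within each class by the difference of the responses, and with dashed lines at 2-fold. All circles lie above 0, although Mcm4 and Ttk do not with TPM, and 36 squares lie below it, the squares of Rrm1, Tk1, Bub1 and Kif23 being the exceptions.

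Levels between genes were compared per length, in TPM. Pcna led with 137 TPM in both normal libraries, 166 TPM in OVA-induced WT lungs and 115 TPM in those of OVA-induced Rab44-KO mice. The helicase subunits lay between 10.1 and 29.9 TPM over all libraries. Among the mitosis genes, Ube2c reached the highest level, 15.2 TPM in the OVA-induced WT library, against 3.93 TPM in the OVA-induced Rab44-KO one. Cdc20 was at 14.1 and 5.70 TPM, and Top2a at 13.8 and 3.65 TPM, in the same libraries. The least abundant were Ttk, at 0.425 to 1.04 TPM, and Cenpf, at 0.334 to 1.02 TPM.

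The median of the mitosis genes lay farther from 0 than that of the S phase genes in every comparison. For OVA in WT lungs the class medians were 0.89 for mitosis and 0.59 for S phase, and for OVA in Rab44-KO lungs -0.83 and -0.39. Between the OVA-induced libraries they were -1.38 and -0.86, and between the normal libraries 0.28 and 0.06. Over 2-fold lower in the Rab44-KO library than in the WT one under OVA were 19 of 25 mitosis and 6 of 15 S phase genes, against 7.34% of all genes. The ranges of the classes overlapped in every comparison, between the OVA-induced libraries from -3.44 to 0.02 for mitosis and from -2.20 to -0.12 for S phase. Summed counts gave the same order. The 25 mitosis genes held 2494, 2918, 4798 and 1906 counts, a log2FC of 0.93 (0.86 to 1.0) for OVA in WT and -0.71 (-0.79 to -0.63) for OVA in Rab44-KO lungs. The 15 S phase genes held 6127, 5935, 8743 and 5130, with 0.50 (0.45 to 0.55) and -0.31 (-0.36 to -0.25). Between the normal libraries the mitosis sum differed by 0.30 (0.22 to 0.38) and the S phase sum by 0.03 (-0.02 to 0.08). The difference of medians between the OVA-induced libraries was 0.52 and it kept its sign in each of the 12 settings tried for it.

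Transcript length moved with the log2FC of the whole transcriptome. The length implied by counts over TPM, set to 1 at the median gene, had a Spearman correlation across genes with log2FC of -0.26 over 19023 genes for OVA in WT and of 0.36 over 19259 genes for OVA-induced Rab44-KO over OVA-induced WT. In the latter, the median log2FC ran from -0.41 in the shortest of 5 equal classes of genes to 0.37 in the longest. Genes are not independent replicates, and these values describe the libraries. The classes had nearly the same median length, 1.02 (0.30 to 2.18) for S phase and 1.0 (0.27 to 3.33) for mitosis genes. Across the 40 genes the same correlations were 0.02 and 0.17. For OVA in Rab44-KO lungs they were 0.08 over the 40 and 0.14 over all genes, and between the normal libraries 0.34 over the 40 and 0.13 over all genes. By these 5 classes, from shortest to longest, the medians of the 4, 10, 15, 7 and 4 genes that fell in each were -1.31, -1.46, -1.0, -1.65 and -1.0 between the OVA-induced libraries. The longest genes, Cenpf and Mki67, at relative lengths of 3.33 and 3.0, were lower there, while the all-gene median of the longest class was 0.37. With a running median along length removed, the medians of the 40 genes were 0.69 for OVA in WT, -0.62 for OVA in Rab44-KO and -1.09 between the OVA-induced libraries, and the difference between the classes in the last was 0.55 in place of 0.52.

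**Figure D3:**
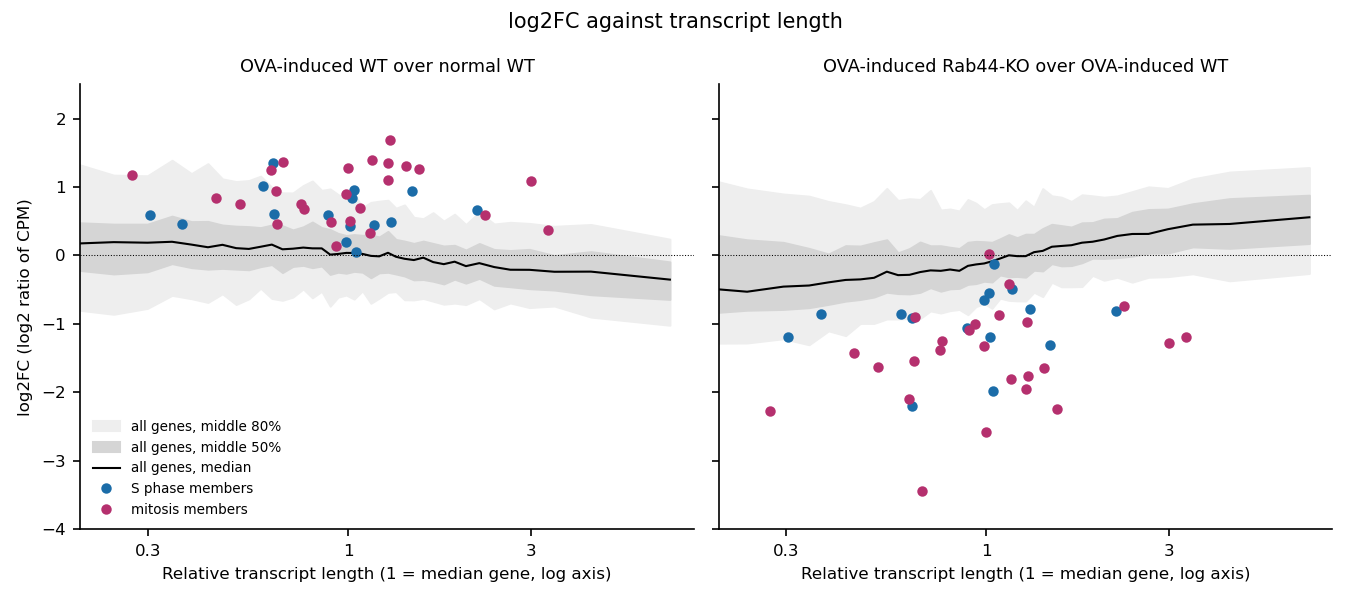
log2FC against relative transcript length (log axis, 1 is the median gene, shown from 0.2 upward) for OVA-induced over normal WT and for Rab44-KO over WT under OVA-induced conditions. Grey bands and the line give the spread and median of all genes by length and points give S phase and mitosis genes, which lie above the line in the first panel, where the all-gene correlation is -0.26, and all but Kif23 below it in the second, where it is 0.36.

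Other genes of the same steps, from lists that do not include the 40, gave smaller medians of the same sign. Of 48 other mitosis genes, 45 were positive for OVA in WT (median 0.66, 15 over 2-fold higher against 8.99% of all genes), and 40 of the 47 with enough counts were negative for OVA in Rab44-KO lungs (median -0.45, 9 over 2-fold lower against 3.85%). Between the OVA-induced libraries 46 of 48 were negative, with a median of -1.08 and 26 over 2-fold lower against 7.34% of all genes. Cdca8, a passenger protein, had 38, 42, 144 and 44 counts, and log2FC of 1.91 (1.39 to 2.47) for OVA in WT and -1.72 (-2.24 to -1.22) between the OVA-induced libraries. Spc24, a kinetochore subunit, had 111 and 32 counts in the OVA-induced libraries (-1.80, -2.42 to -1.23), and Kifc1, a motor of spindle poles, had 108 and 35 (-1.63, -2.23 to -1.07). The exceptions were Anln, an actin-binding protein of the cleavage furrow, at 0.22 (-0.12 to 0.55), and Kif18a, a motor that was named after its value was seen, at 0.40 (-0.18 to 1.0). Of 32 other S phase genes, 28 were positive for OVA in WT (median 0.41, 1 over 2-fold higher, Chaf1b at 1.02, a smaller share than the 8.99% of all genes) and 25 negative for OVA in Rab44-KO lungs (median -0.24). Between the OVA-induced libraries 30 were negative with a median of -0.57, and 4 of the 32 were over 2-fold lower against 7.34% of all genes. Chaf1b, a subunit of the chromatin assembly factor, was one of them, at -1.21 (-1.69 to -0.75), and Mcm10, Exo1 and Clspn, named after their values were seen, were the others.

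Regulators upstream of these steps had medians nearer to 0, and the number of them over 2-fold lower between the OVA-induced libraries, 1 in each of the next 2 lists, was near the 7.34% of all genes. The 9 G1 cyclins and kinases had medians of 0.07 for OVA in WT, -0.26 for OVA in Rab44-KO and -0.36 between the OVA-induced libraries. Of these, Ccne1, cyclin E1, was the 1 gene over 2-fold lower in the last, from 80 to 33 counts (-1.28, -1.92 to -0.69), a gene under the count set for naming. Ccnd1, cyclin D1, by contrast, had 4994, 4981, 3691 and 3280 counts and differed by -0.18 there. The 19 genes of the E2F, FoxM1, B-Myb and pocket protein list had medians of 0.04, -0.12 and -0.28. E2f1, which activates S phase genes, had 253, 201, 367 and 197 counts, with 0.52 (0.29 to 0.76) for OVA in WT and -0.91 (-1.16 to -0.65) between the OVA-induced libraries. Rb1, the retinoblastoma protein, which holds E2F factors inactive, had 819, 906, 851 and 1523 counts and was higher in OVA-induced Rab44-KO lungs by 0.83 (0.71 to 0.95). Foxm1, with 61, 77, 92 and 59 counts, and Mybl2, with 47, 53, 81 and 59, were under the count set for naming and differed there by -0.65 (-1.15 to -0.16) and -0.47 (-0.98 to 0.04). E2f8, also under that count, was the 1 gene of that list over 2-fold lower, with 71 and 35 counts.

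Cdkn1a, which encodes the CDK inhibitor p21, was higher in OVA-induced Rab44-KO lungs, where 36 of the 40 genes were lower than in normal Rab44-KO lungs and 4 (Rrm1, Tk1, Bub1 and Kif23) were not. Its counts were 437, 564, 1609 and 6217, so both OVA-induced libraries were above the normal ones. Its log2FC was 1.87 (1.71 to 2.02) for OVA in WT, 3.37 (3.24 to 3.49) for OVA in Rab44-KO and 1.94 (1.86 to 2.02) between the OVA-induced libraries. In the last comparison, Cdkn1a was the 1 gene over 2-fold higher of the 11 CDK inhibitors and p53 targets, where 8.40% of all genes were. Over 2-fold lower were 2 of the 11, Gadd45a and Cdkn2a (18.2%), against 7.34% of all genes. The 11 genes had a median of -0.15 between the OVA-induced libraries. Mdm2, a target of p53, had 1353, 1328, 1276 and 1255 counts (-0.03, -0.15 to 0.08). Gadd45a, another such target, had 327, 320, 509 and 232 counts (-1.14, -1.37 to -0.92). Cdkn1b, the inhibitor p27, had 2202, 1841, 1947 and 2041 counts (0.06, -0.03 to 0.15), and Cdkn2a, with 18, 15, 41 and 5 counts, was over 2-fold lower. Mdm2, Cdkn1b and Cdkn2a were named after their values were seen. Btg2, an antiproliferative gene, differed between the normal libraries, with 4251 and 8374 counts (1.05, 1.0 to 1.10).

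**Figure D4:**
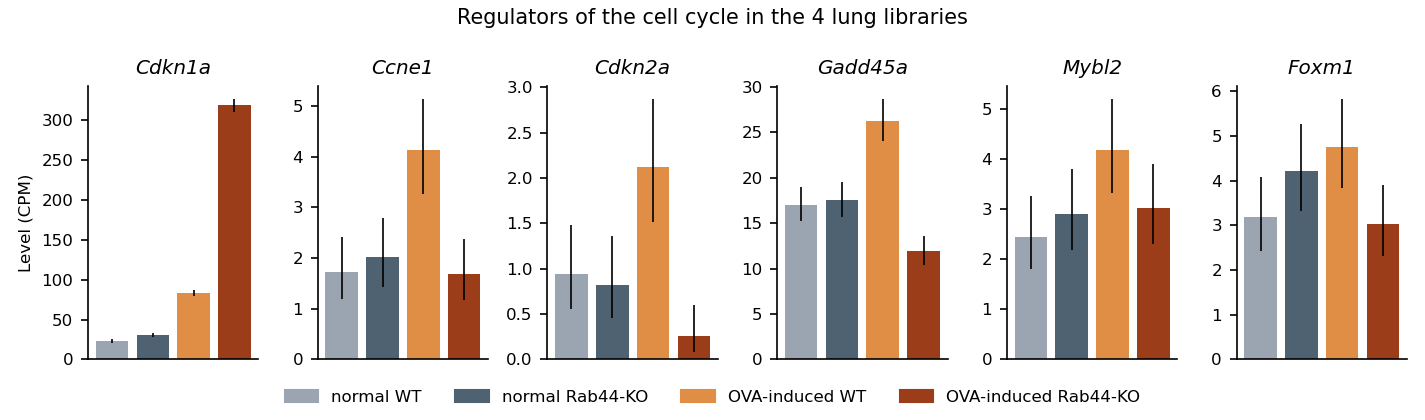
Level in CPM of 6 cell cycle regulators in each of the 4 lung libraries, each panel on its own axis from 0, with 95% Poisson intervals that cover counting error only. Cdkn1a is highest in OVA-induced Rab44-KO lungs with 6217 counts, whereas Ccne1, Cdkn2a, Gadd45a, Mybl2 and Foxm1 are highest in OVA-induced WT lungs.

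Markers of immune cells were, like the cell cycle genes, mostly higher after OVA in WT lungs and lower in the Rab44-KO library than in the WT one under OVA, but most of their lists were not lower after OVA in Rab44-KO lungs. The 8 T cell markers, among them Cd3e, Lck and Trac, summed to 59.0, 61.1, 134 and 64.1 CPM. All 8 were higher in OVA-induced than in normal WT lungs (median 1.21), and all 8 were lower in the Rab44-KO library than in the WT one under OVA (median -1.23, or -0.83 with the trend along length removed). For OVA in Rab44-KO lungs their median was 0.06, while that of the mitosis genes was -0.83. The 4 B cell markers with enough counts of 6 listed were higher after OVA in both genotypes, with medians of 1.04 and 0.82. That list summed to 144, 104, 299 and 179 CPM, with Mef2b at 0 in both OVA-induced libraries. The 6 plasma cell markers, which summed to 496, 494, 1423 and 707 CPM, had medians of 1.71 and 0.71. Plasma cells have left the cycle, but their precursors divide.

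Of 5 alveolar macrophage markers, 4 had an interval below 0 after OVA in Rab44-KO lungs, against 26.6% of all genes, and that of Pparg held 0. Car4 is also in the endothelial list and Siglecf in the eosinophil list. The 5 genes summed to 257, 244, 312 and 159 CPM. Their medians were 0.65 for OVA in WT, -0.50 for OVA in Rab44-KO and -1.05 between the OVA-induced libraries, the last being -0.57 with the trend along length removed. Marco, a scavenger receptor, had 145, 379, 912 and 76 counts. The 5 eosinophil markers summed to 21.3, 22.4, 59.9 and 18.2 CPM, with medians of 1.83, 0.04 and -1.59 over the 4 with enough counts. For OVA in Rab44-KO lungs, Ccr3 and Siglecf, which alone reached 100 counts, had -0.80 and -0.44. The other genes, with fewer counts, were higher and brought the median to 0.04. Epx, the eosinophil peroxidase gene, was at 0 in 3 libraries and at 1 count in OVA-induced WT lungs. The 7 early neutrophil markers, genes of granulocyte precursors, summed to 16.04, 18.7, 55.5 and 44.5 CPM, and 4 of them were at 0 in normal WT and 2 in normal Rab44-KO lungs. Their median between the OVA-induced libraries was -0.45 over 5 genes, and 0.02 with the trend along length removed.

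The medians of epithelial, endothelial and erythroid markers were below 0 for OVA in WT lungs, unlike those of the cell cycle genes. The 8 epithelial markers had medians of -0.32 for OVA in WT and -0.39 for OVA in Rab44-KO lungs, the 5 endothelial markers -0.45 and -0.15, and the erythroid markers -0.11 and -0.10 over 6 genes, the second of which was 0.05 with the trend along length removed. Single markers went the other way. Sftpc and Sftpb, of alveolar type 2 cells, which can divide after injury, had log2FC of 0.45 and 0.30 for OVA in WT and -1.01 and -0.19 between the OVA-induced libraries. Of the erythroid list, Gata1, a factor of red cell precursors and eosinophils, had 28, 15, 64 and 28 counts, with 1.18 (0.52 to 1.88) and -1.20 (-1.90 to -0.54), a gene named after its values were seen. Housekeeping genes moved in the direction of the cell cycle genes but less far, with medians over 9 genes of 0.36 for OVA in WT, -0.17 for OVA in Rab44-KO and -0.61 between the OVA-induced libraries. Ppia had 8244, 9121, 11196 and 5197 counts, and its log2FC of -1.12 between the OVA-induced libraries was near the median of the 40 genes. The housekeeping genes are short, at a median relative length of 0.54, and with the trend along length removed their median between the OVA-induced libraries was -0.26, against -1.09 for the 40 genes. The part that these cell types, the scaling or the length trend had in the cell cycle result was not tested.

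**Figure D5:**
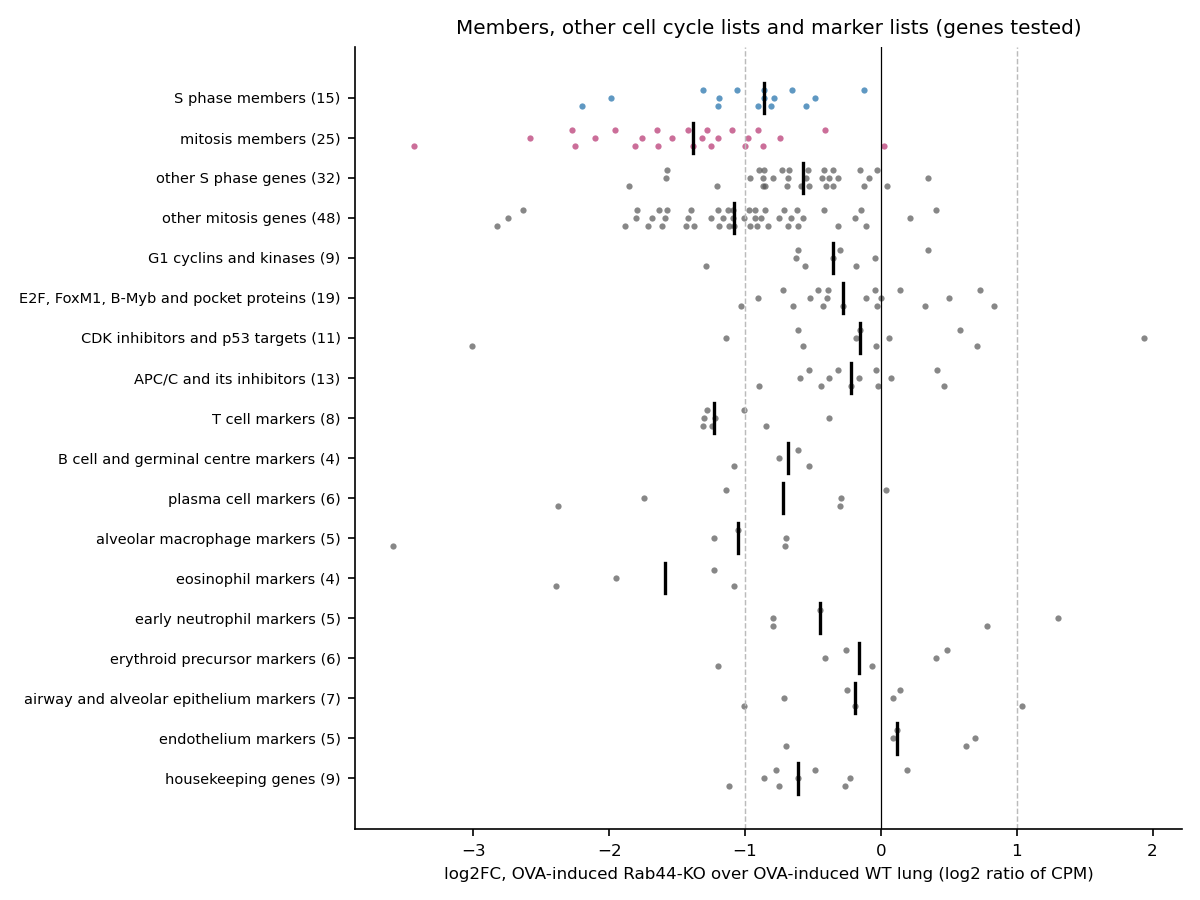
log2FC of OVA-induced Rab44-KO over OVA-induced WT for each gene (points) of the member classes, other cell cycle lists, cell type markers and housekeeping genes, with the median of each list as a bar and dashed lines at 2-fold. The bars of the mitosis genes (-1.38), other mitosis genes (-1.08), T cell (-1.23), alveolar macrophage (-1.05) and eosinophil markers (-1.59) lie below -1, those of the T cell and alveolar macrophage markers only without removal of the length trend (-0.83 and -0.57 with it), and Cdkn1a is the point at 1.94.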

How the data were processed

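Lung RNA of 4 mouse groups was analysed, 1 library each, as the labels give them. Per the authors, paired reads of 150 bases from a directional kit were trimmed and mapped to GRCm38 by HISAT2, and featureCounts gave the deposited raw counts of each gene. They also deposited TPM, which here equal the counts over 1 length per gene and 1 factor per library. Tool versions, the strand setting and the handling of reads with several matches are not given in the sources used here. Counts of genes under exons of others are therefore uncertain. The overlapping genes named above lie on the opposite strand, where they matter only if the counting ignored strand.

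Library sizes were scaled by TMM in edgeR 4.0.16 (R 4.3.3, factors 0.973 to 1.02), and the log2FC used a prior count of 0.125 and at least 10 counts in the higher library. Python 3.11.15, numpy 2.4.6, pandas 2.3.3, scipy 1.17.1 and matplotlib 3.10.9 were used. Intervals are exact 95% Clopper-Pearson for a ratio, exact Poisson for a level, and for the difference of 2 responses a normal one from the 4 counts. They cover counting error only. Steps were tested on simulated data.

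The members and lists were chosen with earlier results of these data known. All members are named. Of other lists, the 3 genes with the largest absolute log2FC in a comparison and at least 100 counts could be named, with any G1, CDK inhibitor or E2F list gene over 2-fold at that count. Promoters are RefSeq (GRCm38.p6), and overlaps between genes are from GENCODE M21. The alternatives were DESeq2 1.42.0 size factors, totals only, TMM on the compared libraries or without immunoglobulin genes, a prior count of 2, TPM with a pseudocount of 0.1, thinning to the smallest total, minimums of 1 and 50 counts, a 1.5-fold threshold, counting intervals, a running median along length over 501 genes, members of shared length, and mitosis without Ccna2, Mki67 and Melk.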

Additional observations from a re-analysis of the deposited data

Results flagged for a closer look

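The response to OVA ran in opposite directions in the genotypes for 26 of the 40 genes, with the counting interval above 0 in WT and below 0 in Rab44-KO lungs, against 6.72% of all genes. Each genotype has 1 library per condition, so the difference between the responses was not tested. As the log2FC of OVA-induced over normal lung in Rab44-KO minus that in WT mice, the difference for S phase genes was Mcm2 -0.76, Mcm3 -1.02, Mcm5 -1.25, Mcm6 -0.88, Cdc6 -2.03, Gins2 -1.27, Pcna -0.83, Rrm2 -2.43 and Uhrf1 -2.04. For mitosis genes the difference on the same scale was Ccna2 -1.48, Ccnb1 -3.43, Ccnb2 -1.90, Cdk1 -2.24, Aurkb -2.51, Plk1 -1.69, Bub1b -1.13, Birc5 -2.68, Cdc20 -1.57, Ube2c -2.68, Kif11 -2.18, Tpx2 -2.51, Nusap1 -1.51, Prc1 -1.47, Hmmr -2.35, Mki67 -1.81 and Top2a -2.53. The widest was that of Ccnb1, which has 13 counts in OVA-induced Rab44-KO lungs.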

How the results depend on the processing

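The median of the members and the difference between the classes kept their sign in all 5 comparisons under every alternative run. Of 193 alternative values 182 stayed near the main one and 11 moved. Near meant within an interval from the spread of the genes for a median or difference, and within 1.5-fold for a count. For OVA in WT the interval of the difference held 0. Medians stayed near in 58 cases and moved in 2, and differences stayed near in 60. Counts have no sign and could not change direction. Those over 2-fold stayed near in 62 cases and moved in 8. With TPM the median for OVA in WT moved to 0.57 and the median between the OVA-induced libraries to -0.86. Counts over 2-fold moved with TPM to 7 for OVA in Rab44-KO and 15 between the OVA-induced libraries. With a 1.5-fold threshold they were 28 for OVA in WT, 23 for OVA in Rab44-KO and 3 between the normal libraries (15.4%, 10.1% and 6.83% of all genes in the same direction), and by counting intervals in either direction 36, 30 (29 below 0 and 1 above) and 8, in place of 13, 12 and 0; 29.2%, 26.6% and 14.6% of all genes had an interval above, below and above 0. From 100 bases before to 50 after the start, 4 genes in place of 8 held an E2F form, against 1.45% in place of 2.60% of all promoters. With TPM, Mcm4 and Ttk changed sign for OVA in WT, Mcm7 and Cdt1 for OVA in Rab44-KO, Mcm7, Pcna and Ccnb1 between the normal libraries, and Mcm4 between the OVA-induced libraries. Thinning turned Mcm7 and Ccnb1, and removal of the length trend Pcna and Ccnb1, between the normal libraries. The moves with TPM follow from its construction, a shift of all genes in a comparison by the ratio of 1 factor per library, apart from the pseudocount. The cause of the others was not tested. Depth limits low genes such as Ttk and Cenpf, whose intervals held 0 for OVA in WT. No paired analysis was possible because each condition has 1 library and the labels give no replicate numbers, and for the same reason no library could be left out.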
